A study of Mus musculus with 12 samples.

Results

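The livers compared here came from exercised mice on a high-fat diet (HFD+AE) and from unexercised mice on a normal diet (NC), and the question was which transcripts still differed from the normal diet after exercise, and which differed only in that comparison. Samples were chosen by their labels: 3 HFD+AE libraries (1, 2 and 3) and 3 NC libraries (2, 4 and 5), 6 of the 12 RNA-seq libraries in the series. All mice were male C57BL/6, an inbred strain, aged 6 weeks when they were divided between diets after 1 week of adaptation. NC mice ate a normal diet. The high-fat groups ate D12492, a purified high-fat diet, and after 8 weeks were divided into HFD without exercise, HFD+AE and HFD+RE, the exercise lasting at least 12 weeks on the same diet. AE and RE are given only as abbreviations, which in exercise studies usually stand for aerobic and resistance exercise. HFD+AE and NC therefore differed in both diet and exercise, and the HFD and HFD+RE libraries (3 each) are given beside them to place a change. Whether each library is a separate animal is not stated, so the p-values measure the spread between these samples only, and part of it may be technical.

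The liver stores, burns and exports fat, makes bile acids from cholesterol and clears hormones and foreign compounds with cytochrome P450 enzymes. Nuclear receptors, transcription factors that bind lipids and other small molecules, set many of these genes. In mice part of the liver's P450, carrier protein and steroid enzyme genes are expressed mainly in males or mainly in females, under the pattern of growth hormone release. Long high-fat feeding is known to raise lipid droplet genes and to disturb this sex-biased expression.

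Total counts ran from 47823607 to 77665729 in NC and from 55922691 to 65434486 in HFD+AE, and 18305 of 55291 genes passed the low-count filter and were tested. Levels are given as CPM, counts scaled to a common library total. Markers of hepatocytes summed to 121900 to 136700 CPM in NC and 120000 to 135500 in HFD+AE, so both groups read as liver. The library HFD+AE 3 stood apart from HFD+AE 1 and 2: on the second principal component of log2 CPM, which held 14% of the variance, it lay at -70.7 and they lay at -5.85 and -18.2. Across genes, the rank correlation of its levels (relative to the mean of the 12 libraries) with GC content was 0.496, against -0.295 and -0.252 in HFD+AE 1 and 2 and -0.219 to -0.143 in NC. That correlation was -0.225 in HFD+RE 3 and 0.346 in HFD+RE 4. With gene length it was 0.083 to 0.205 in NC, 0.292, 0.287 and -0.032 in HFD+AE 1, 2 and 3, -0.288 to -0.153 in HFD and -0.307 to 0.225 in HFD+RE. Mitochondrial rRNA made up 0.71 to 0.92% in NC, 0.77 to 0.87% in HFD+AE, 1.76 to 3.26% in HFD and 0.69 to 1.71% in HFD+RE. HFD thus differed from NC and HFD+AE in library measures too, and their part in the differences from HFD given below was not tested. On the first component, which held 40.6% of the variance, HFD+AE 1, 2 and 3 lay at -40.4, -36.95 and 13.95. HFD+RE 3, 4 and 5 lay at -36.6, 50.4 and 52.6 there, so HFD+RE 3 lay near HFD+AE 1 and 2 and apart from its own group. On the second component HFD+RE 3, 4 and 5 lay at -3.88, -40.1 and 2.35. There HFD+RE 4 was the library nearest to HFD+AE 3, nearer than HFD+AE 1 or 2. HFD+AE 3 and HFD+RE 3 each lay nearer to libraries of the other exercise group on these measures. The cause was not tested. The median SD of log2 CPM within HFD+AE was 0.35, and 0.12 without HFD+AE 3, against 0.26 within NC.

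Of the 18305 genes, 253 (1.38%) passed an adjusted p below 0.05 in HFD+AE vs NC by edgeR's quasi-likelihood test with Benjamini-Hochberg adjustment, and are called below. Among them 165 (0.901%) rose and 88 (0.481%) fell, 217 changed at least 2-fold, 77 at least 4-fold and 34 at least 8-fold. The median log2 change over all genes was -0.01. NC and HFD+AE did not overlap for 3995 genes (21.8%), which included all 253 called genes, and 2566 genes (14%) had an unadjusted p below 0.05. Protein-coding genes made up 146 of the 165 genes that rose and 75 of the 88 that fell, against 13786 of the 18305 genes tested. The median length of the genes that rose was 4088 bases and of those that fell 3769.5 bases, against 3548 over all genes tested. HFD+AE 3 lay farthest from the NC mean for 134 of the 253 genes, HFD+AE 2 for 75 and HFD+AE 1 for 44. The number of genes called moved with single libraries: it was 44 without HFD+AE 2, 58 without NC 4, 110 without NC 2, 110 without HFD+AE 3, 129 without HFD+AE 1 and 131 without HFD 1, and rose to 373 without HFD+RE 3, since all 12 libraries shared the estimate of the spread. In each of the 12 fits that left out a library, 32 genes were called, 25 that rose and 7 that fell.

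**Figure D1:**
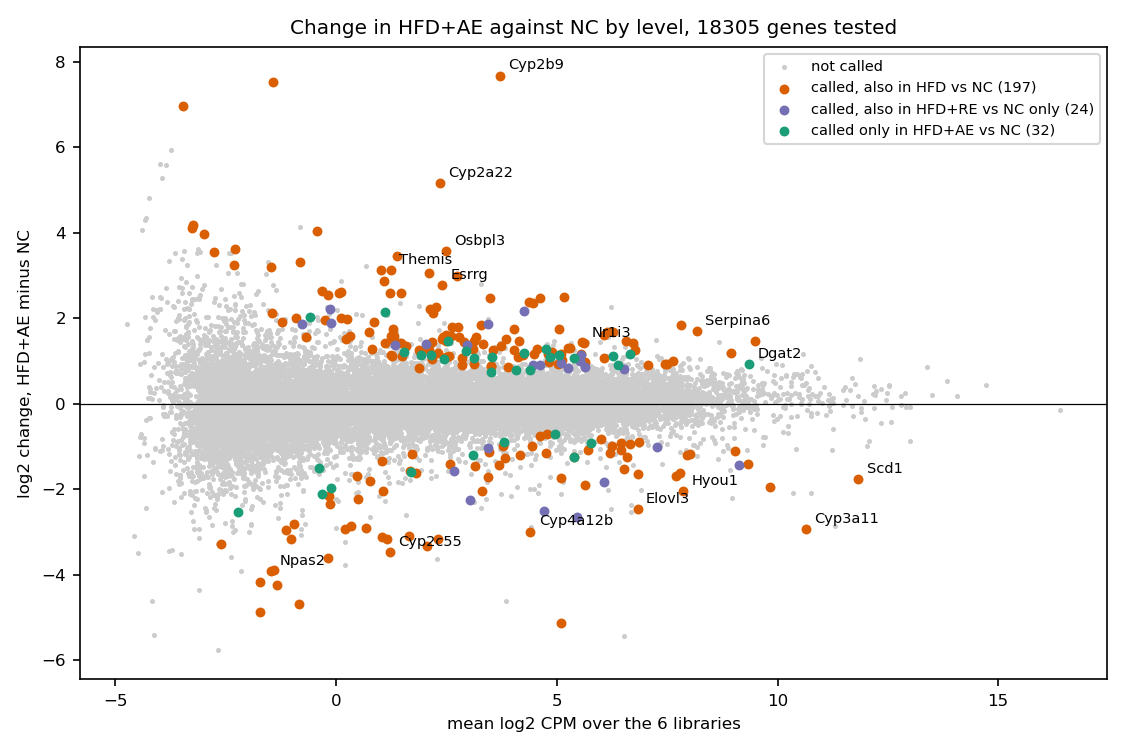
Log2 change in HFD+AE vs NC (vertical axis) against the mean log2 CPM over the 6 libraries (horizontal axis) for the 18305 genes tested; each point is a gene and coloured points are the 253 called genes. Most coloured points are orange, the 197 genes also called in HFD vs NC, and the 32 genes called only in HFD+AE vs NC (green) lie mostly near the called genes with the smallest changes.

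The same NC libraries served in all comparisons with NC, so lists of calls share them. HFD vs NC called 2851 genes (15.6%) and HFD+RE vs NC 724 (3.96%). Of the 253 genes, 197 (1.08% of genes tested) were called in the same direction in HFD vs NC, 127 that rose and 70 that fell, and 0 in the opposite direction. They were 77.9% of the HFD+AE calls and 6.91% of the HFD calls. A further split gave 154 genes called in all 3 high-fat groups, 43 in HFD+AE and HFD but not HFD+RE, 24 in HFD+AE and HFD+RE but not HFD, and 32 in HFD+AE alone. Over the 197 genes the median size of the log2 change was 1.58 in HFD+AE, 1.6 in HFD and 1.56 in HFD+RE, and 101 of the 197 had the larger change in HFD+AE than in HFD. These genes were chosen for passing in both HFD+AE vs NC and HFD vs NC, so genes with a small change in HFD+AE were left out. The like sizes are partly built in and do not show that the diet effect kept its size. HFD+AE vs HFD itself called 9 genes (0.0492%), 3 that rose (0.0164%) and 6 that fell (0.0328%), of which 1 (Themis) was among the 197. The 2654 other genes called in HFD vs NC were not called in HFD+AE vs NC, and 816 of them had an unadjusted p below 0.05 there, with 7 called in HFD+AE vs HFD. The number also called in HFD vs NC was 42 without HFD+AE 2, 48 without NC 4, 86 without NC 2, 88 without HFD 1, 91 without HFD+AE 3, 98 without HFD 3, 110 without HFD+AE 1 and 297 without HFD+RE 3.

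Nuclear receptors are described first. Of 40 tested on a list of 44 made after the values were seen, 4 rose, 0 fell and 36 did not pass, with a median log2 change of 0.28 (0.10 without HFD+AE 3) against -0.01 over all genes. Esrrg, the estrogen-related receptor gamma, an orphan receptor of oxidative metabolism, stood at 2.21, 2.26 and 1.58 CPM in NC 2, 4 and 5 and at 14.2, 14.9 and 12.1 in HFD+AE 1, 2 and 3. Every HFD+AE library was higher than every NC library and also than the HFD (5.82 to 7.56) and HFD+RE (5.86 to 9.57) libraries. Its log2 change from NC was 2.77 (SE 0.24, adjusted p = 0.00033), and it was the only called gene that passed in each of 24 alternative fits. Against HFD the difference was 1.08 (adjusted p = 0.057), and against the mean of HFD and HFD+RE 0.96 (SE 0.19, adjusted p = 0.13), so neither passed. The gene lies on mm10 chromosome 1 (187608791 to 188214885).

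Nr1i3, the constitutive androstane receptor, which switches on drug-metabolising P450 genes, stood at 29.6, 28.2 and 31.7 CPM in NC and at 93.5, 73.5 and 73.5 in HFD+AE (1.43, SE 0.17, adjusted p = 0.0035). The HFD libraries (42.8 to 53.3) and HFD+RE libraries (45.7 to 57.7) lay between the groups without overlap, and the difference from HFD was 0.70 (adjusted p = 0.061). Ppara, the receptor that drives fatty acid oxidation, rose from 131 ± 5.42 to 248 ± 12.7 CPM (SD, n = 3; 0.92, SE 0.18, adjusted p = 0.025). That call was lost without NC 2 (0.085), NC 4 (0.12), NC 5 (0.051), HFD+AE 1 (0.073) or HFD+AE 2 (0.091), while Esrrg and Nr1i3 were called without each of the 12 libraries. Esrrg and Nr1i3 overlap a gene on the other strand, and the strand setting of the counts is not given.

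**Figure D2:**
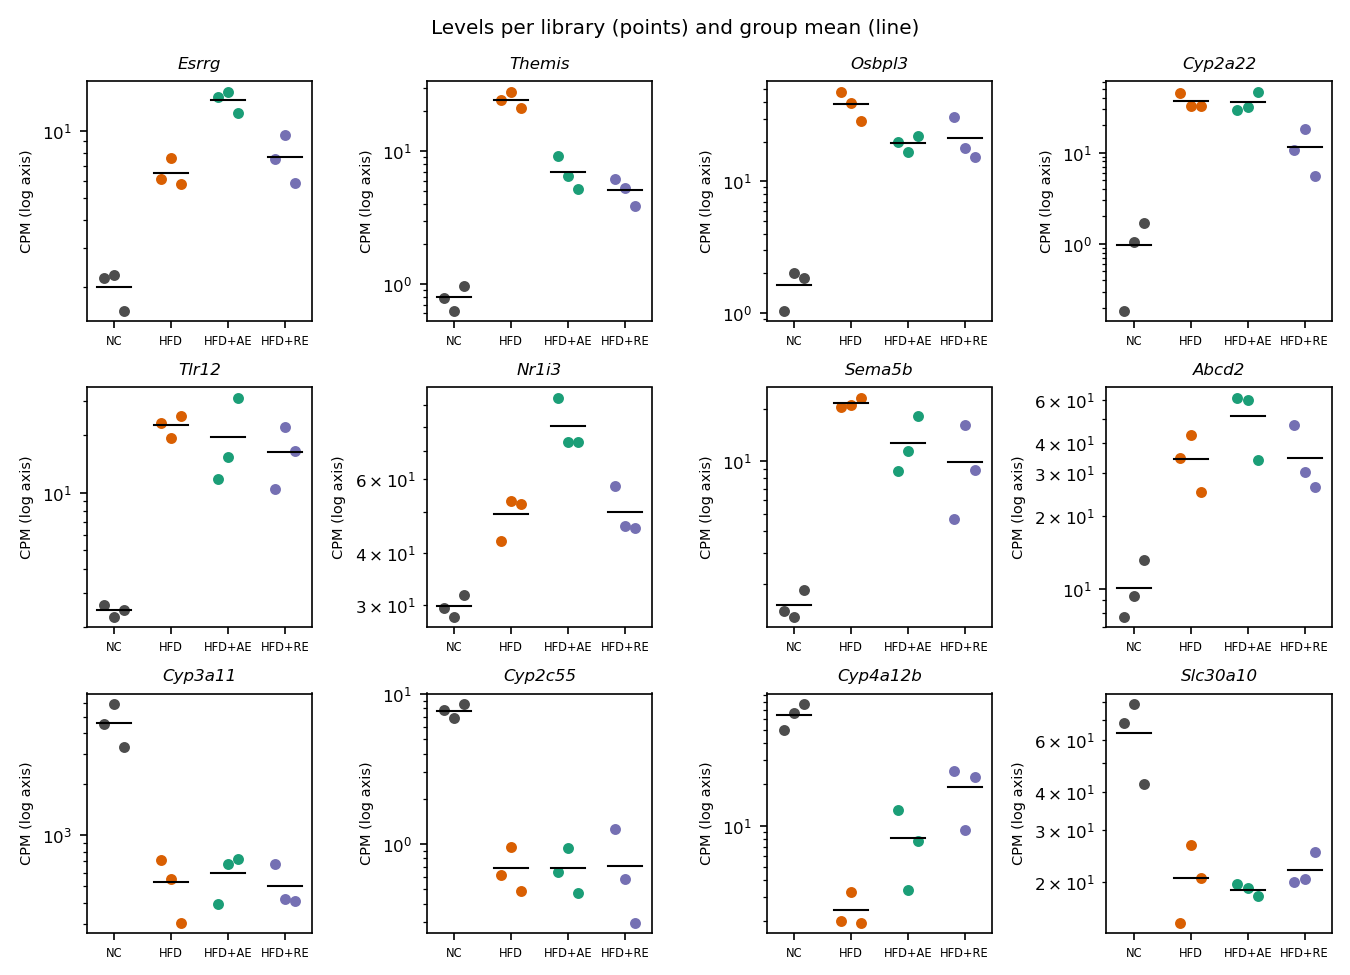
CPM on a log axis for 12 genes called without each of the 12 libraries, with a point per library and a line at the group mean, by group. In every panel the HFD+AE points lie on the same side of the NC points as the HFD and HFD+RE points; for Esrrg and Nr1i3 the HFD+AE points are the highest of the 12 libraries, and for Themis they lie between NC and HFD.

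Xenobiotic enzymes moved in both directions. Of 25 tested genes of the list, 4 rose (Cyp2b9, Cyp2b13, Cyp2a5 and Nr1i3), 3 fell (Cyp3a11, Cyp2c55 and Ces2a) and 18 did not pass, with a median of 0.33. HFD vs NC called 6 of them higher and 7 lower. The number that rose was 1 without NC 4, 1 without HFD+AE 3, 2 without NC 2 and 2 without HFD+AE 2. Cyp3a11, the main drug-metabolising P450 of mouse liver, stood at 4551, 5926 and 3307 CPM in NC and at 394, 678 and 724 in HFD+AE. The lowest NC library was thus several times the highest HFD+AE library, and HFD (305 to 718) and HFD+RE (410 to 679) overlapped HFD+AE. Its log2 change was -2.94 (SE 0.37, adjusted p = 0.0044), beside -3.13 in HFD and -3.19 in HFD+RE. Cyp2c55, a P450 that oxidises fatty acids, fell from 7.79, 6.89 and 8.50 CPM to 0.654, 0.939 and 0.474 (-3.48, SE 0.46, adjusted p = 0.0044). Ces2a, a carboxylesterase, fell from 378 ± 63.1 to 164 ± 28.9 CPM (SD, n = 3; adjusted p = 0.021). HFD was lower than HFD+AE for Ces2a, at 67.1 to 95.1 CPM (log2 difference 1.05, adjusted p = 0.057), and its call was lost without NC 2 (0.061), NC 4 (0.096), HFD+AE 1 (0.073) or HFD+AE 2 (0.091).

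Cyp2b9, a P450 of female mouse liver, had the largest rise among the genes above a mean of 1 on the log2 CPM scale. It stood at 0.409, 1.15 and 1.45 CPM in NC and at 99.2, 211 and 312 in HFD+AE, a log2 change of 7.68 (SE 1.23, adjusted p = 0.012), lost without NC 4 (0.066) or HFD+AE 3 (0.055). The HFD libraries held 232 to 281 CPM, so HFD+AE overlapped them, and in HFD+RE the values were 8.77, 201 and 8.27 in libraries 3, 4 and 5. Its neighbour Cyp2b13 was at 0, 0.0217 and 0.0657 CPM in NC and at 0.374, 1.81 and 17.5 in HFD+AE (adjusted p = 0.042). It was called in 3 of the 12 fits that left out a library, and its highest adjusted p there was 0.18, without NC 4. Cyp2a22, of the coumarin hydroxylase subfamily, rose from 0.186, 1.04 and 1.70 CPM to 29.3, 31.7 and 45.7 (5.16, SE 0.60, adjusted p = 0.0035), close to the 32.2 to 45.2 CPM of HFD. Cyp2a5, its relative, rose from 437 ± 121 to 1207 ± 221 CPM (SD, n = 3; 1.47, SE 0.28, adjusted p = 0.025; lost without NC 2 at 0.087, NC 4 at 0.12, HFD+AE 2 at 0.078 or HFD+AE 3 at 0.074). These genes belong to near-identical families that can share reads, so single values within Cyp2a, Cyp2b, Cyp2c, Cyp3a and Ces2 are uncertain.

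Nuclear receptors such as those above bind copies of the half-site AGGTCA, and the promoters of the P450 with the largest rise and of the most abundant P450 that fell are printed here to show that half-site in both. They are the 250 bases before the RefSeq start on GRCm38.p6, written on the gene's own strand with AGGTCA in capitals: 138 bases before the start for Cyp2b9 (chr7:26173159-26173408, plus strand) and 162 bases before it for Cyp3a11 (chr5:145879855-145880104, minus strand).
Cyp2b9: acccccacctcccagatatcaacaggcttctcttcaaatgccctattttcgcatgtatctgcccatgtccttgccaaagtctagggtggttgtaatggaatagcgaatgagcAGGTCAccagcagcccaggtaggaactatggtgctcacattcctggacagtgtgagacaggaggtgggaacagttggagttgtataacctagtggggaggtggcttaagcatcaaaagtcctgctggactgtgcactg
Cyp3a11: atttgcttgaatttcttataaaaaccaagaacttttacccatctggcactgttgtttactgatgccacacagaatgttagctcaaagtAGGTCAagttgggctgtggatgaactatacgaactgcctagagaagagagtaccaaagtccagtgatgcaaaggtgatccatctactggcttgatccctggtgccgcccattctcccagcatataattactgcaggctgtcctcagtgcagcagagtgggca
AGGTCA on either strand was in 25 of 168 promoters of genes that rose (14.9%) and in 9 of 81 of genes that fell (11.1%), against 11.8% of 15243 promoters of the genes tested, so it was about as frequent in all 3. RefSeq promoters were matched by symbol for 181 of the 253 called genes. A match describes the letters only.

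Of 20 tested genes of male mouse liver, 4 fell (Cyp4a12b, Elovl3, C6 and Nudt7), 0 rose and 16 did not pass, and 20 of 20 had a negative log2 change, with a median of -1.31. In HFD vs NC 18 of these 20 fell, with a median of -2.69; 7.19% of all genes fell there and 8.38% rose. Cyp4a12b, a fatty acid hydroxylase, stood at 50.3, 65.9 and 76.8 CPM in NC, at 13, 3.38 and 7.74 in HFD+AE and at 1.96 to 3.29 in HFD. All HFD+AE libraries lay below NC and above HFD; the change from NC was -3 (SE 0.46, adjusted p = 0.01) and the difference from HFD 1.74 (adjusted p = 0.063). Elovl3, which elongates fatty acids, fell from 281, 469 and 118 CPM to 62.6, 48.0 and 45.9 (-2.47, SE 0.39, adjusted p = 0.011; 0.063 without HFD+AE 2). C6, which forms part of the pore made by complement, fell from 383 ± 56.5 to 119 ± 40.0 CPM (SD, n = 3; -1.69, SE 0.33, adjusted p = 0.027; lost without NC 2 at 0.077, NC 4 at 0.089, HFD+AE 2 at 0.12 or HFD+AE 3 at 0.092). The number of the list that fell was 1 without HFD+AE 2, 2 without NC 2 and 2 without HFD+AE 3.

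Hsd3b5, a steroid enzyme of male liver, did not pass in HFD+AE vs NC: its values were 211, 191 and 89.2 CPM in NC and 77.0, 26.6 and 17.4 in HFD+AE (-2.02, SE 0.59, adjusted p = 0.12). HFD held 0.273 to 0.422 CPM, and the difference between HFD+AE and HFD, 6.86 on the log2 scale, passed (adjusted p = 0.011). Mup9, a major urinary protein gene with near-identical copies, fell from 28.8, 16.3 and 16.9 CPM to 6.36, 4.98 and 3.77 (-2.03, SE 0.33, adjusted p = 0.012; 0.063 without HFD+AE 2). It stood at 0.901 to 1.82 CPM in HFD, below all HFD+AE libraries (log2 difference 1.98, adjusted p = 0.054).

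Of 17 tested genes of female mouse liver, 6 rose (Cyp2b9, Cyp2b13, Cyp17a1, Hao2, Abcd2 and Atp6v0d2), 2 fell (Cyp3a16 and Cyp3a44) and 9 did not pass, and 14 had a positive log2 change (median 2.18; 0.79 in HFD vs NC, where 7 rose and 3 fell). Genes near zero in NC, such as Cyp2b13, could pass the low-count filter through the groups where they were high. With no low-count filter 20 genes of the list were tested, of which 4 rose and 3 fell. Then 14 had a positive and 6 a negative log2 change, with a median of 1.15. Abcd2, which carries very long-chain acyl-CoA into peroxisomes, rose from 7.71, 9.35 and 13.2 CPM to 60.7, 59.9 and 33.9 (2.35, SE 0.31, adjusted p = 0.0044), with HFD at 24.9 to 43.0. Atp6v0d2, a subunit of the vacuolar proton pump, rose from 1.15 ± 0.38 to 6.94 ± 2.56 CPM (SD, n = 3; adjusted p = 0.012; 0.066 without NC 4 and 0.06 without HFD+AE 2). Cyp3a16 fell by 3.13 on the log2 scale (SE 0.53, adjusted p = 0.014; 0.066 without HFD+AE 2). Hao2, a peroxisomal hydroxyacid oxidase, was at 0.149 to 0.21 CPM in NC and at 0.841, 3.93 and 4.49 in HFD+AE (adjusted p = 0.018; lost without NC 2 at 0.063, NC 4 at 0.085, HFD+AE 2 at 0.063 or HFD+AE 3 at 0.051). The number of the list that rose was 2 without NC 4, 2 without HFD+AE 2, 3 without NC 2 and 3 without HFD+AE 3, and the median was 1.25 without NC 4, 1.44 without NC 2 and 1.14 without HFD+AE 3. On the growth hormone and IGF list 0 of 14 passed by edgeR and 7 had an unadjusted p below 0.05. Igf1, the growth factor that growth hormone induces in liver, stood at 645 ± 220 CPM in NC and 697 ± 202 in HFD+AE (SD, n = 3; adjusted p = 0.9).

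Several carriers and small-molecule enzymes were called without each of the 12 libraries. Slc30a10, a manganese exporter, fell from 68.0, 78.7 and 42.5 CPM in NC to 19.7, 19.1 and 18 (-1.74, SE 0.25, adjusted p = 0.0071), within the HFD range of 14.7 to 26.6. Slc2a5, the fructose transporter, rose from 4.67, 3.44 and 3.83 CPM to 10.1, 11 and 14.3 (1.57, SE 0.22, adjusted p = 0.0053), beside 7.08 to 10.6 in HFD and 13.3 to 14.1 in HFD+RE. Slc17a8, a vesicular glutamate transporter, rose from 8.53, 20.1 and 20.3 CPM to 136, 93.8 and 45.3 (2.49, SE 0.40, adjusted p = 0.012). Every HFD+AE value of Slc17a8 exceeded the HFD values of 36.1 to 41.4, with a difference of 1.23 (adjusted p = 0.083), and HFD+AE overlapped HFD+RE (30.0 to 50.4). Slc22a29, of the organic anion transporter family, rose from 0.795 ± 0.196 to 5.91 ± 2.91 CPM (SD, n = 3; 2.88, SE 0.39, adjusted p = 0.0044), and Sult1c2, a sulfotransferase, from 3.11 ± 0.524 to 9.15 ± 0.604 CPM (1.56, SE 0.20, adjusted p = 0.0044). Osbpl3, an oxysterol-binding protein, rose from 1.04, 2.02 and 1.85 CPM to 20, 16.6 and 22.3 (3.58, SE 0.33, adjusted p = 0.00033); HFD held more, at 28.8 to 47.5, with no overlap (difference -0.98, adjusted p = 0.078).

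Csad, which makes taurine from cysteine, fell from 176, 219 and 214 CPM to 59.2, 61.0 and 74.3 (-1.65, SE 0.27, adjusted p = 0.012; 0.063 without HFD+AE 2). Asrgl1, an asparaginase, rose from 7.70 ± 1.34 to 18.3 ± 0.757 CPM (SD, n = 3; adjusted p = 0.0044), and Dglucy, a D-glutamate cyclase, from 24.4 ± 1.91 to 49.5 ± 4.07 CPM (adjusted p = 0.0089). HFD was close to HFD+AE for both, at 17.2 to 18.7 and 47.5 to 53.2 CPM. Mbd1, which binds methylated DNA, fell from 145, 185 and 154 CPM to 65.8, 67.3 and 34.4 (-1.53, SE 0.24, adjusted p = 0.011). Serpina6, the corticosteroid-binding globulin of plasma, rose from 148, 134 and 208 CPM to 410, 478 and 709 (1.71, SE 0.26, adjusted p = 0.0099, and 0.05 without NC 4). HFD held 289 to 317 CPM of it, below every HFD+AE library, and the difference did not pass (0.80, adjusted p = 0.088). Serpina6, Slc2a5, Asrgl1 and Dglucy were picked after their values were seen.

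Lipid genes were called in small numbers. In de novo lipogenesis, 1 of 21 genes rose (Dgat2), 1 fell (Scd1) and 19 did not pass, with a median of -0.27 (-0.45 without NC 4 and -0.16 without HFD+AE 1). Scd1, the desaturase that makes monounsaturated fatty acids, stood at 8183, 3923 and 8746 CPM in NC and at 1936, 2240 and 1943 in HFD+AE (-1.77, SE 0.34, adjusted p = 0.027). HFD was slightly lower, at 1498 to 1863, and HFD+RE held 3278, 5379 and 8093. The Scd1 call was lost without NC 2 (0.077), NC 5 (0.063), HFD+AE 1 (0.082), HFD+AE 2 (0.091) or HFD+AE 3 (0.092). Srebf1, the gene of a transcription factor of lipogenesis, stood at 97.6 ± 49.2 and 273 ± 86.1 CPM (SD, n = 3; adjusted p = 0.082), and Fasn, fatty acid synthase, at 306 ± 54.0 and 235 ± 78.2 CPM (adjusted p = 0.78). On the list of fatty acid oxidation genes and targets of PPARA, 30 were tested: 1 rose (Ppara), 0 fell and 29 did not pass, while 27 had a positive log2 change (median 0.51; 0.19 in HFD vs NC). The number that rose was 3 without NC 5, 2 without HFD+RE 3 or HFD+RE 4, and 0 without NC 2, NC 4, HFD+AE 1 or HFD+AE 2. Cpt1a, which controls the entry of fatty acids into mitochondria, stood at 442, 331 and 533 CPM in NC and at 749, 794 and 764 in HFD+AE, without overlap (0.82, SE 0.25, adjusted p = 0.14). Aldh3a2, a fatty aldehyde dehydrogenase outside the list, rose from 329 ± 70.6 to 753 ± 26.1 CPM (SD, n = 3; adjusted p = 0.024; lost without NC 2 at 0.081, NC 4 at 0.085, HFD+AE 1 at 0.058, HFD+AE 2 at 0.074 or HFD+AE 3 at 0.056).

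Of 21 lipid droplet and fatty acid uptake genes tested, 1 rose in HFD+AE vs NC (Vldlr), 0 fell and 20 did not pass (median 0.29). Unadjusted, 8 of them had p below 0.05 by edgeR, and DESeq2 called 4 higher and 0 lower. HFD vs NC called 10 higher and 1 lower by edgeR (median 0.76). That comparison called more genes of all kinds: 8.38% of genes tested rose there, against 0.901% in HFD+AE vs NC. Without NC 5 the HFD+AE median was 0.62 and 3 rose; 3 rose without HFD+RE 3, 2 without HFD+RE 5 and 0 without NC 4 or HFD+AE 2. Vldlr, a receptor for triglyceride-rich lipoproteins, rose from 1.99, 1.61 and 3.13 CPM to 7.76, 12.0 and 12.8 (2.26, SE 0.36, adjusted p = 0.012; 0.064 without NC 4 and 0.053 without HFD+AE 2). Cidec, which promotes droplet growth, stood at 5.74, 8.27 and 11.1 CPM in NC, 6.79, 6.70 and 8.71 in HFD+AE and 49.0, 26.8 and 27.4 in HFD. The HFD+AE libraries lay within the NC range (-0.18, SE 0.27, adjusted p = 0.83), and the difference from HFD was -2.22 (adjusted p = 0.022). Cidea, a related droplet protein, stood at 0.0372 to 0.158 CPM in NC, at 0.748, 0.106 and 0.165 in HFD+AE and at 4.41 to 7.03 in HFD (difference from HFD -4.05, adjusted p = 0.054). Plin2, a droplet coat protein, was at 453 ± 127 CPM in NC and 384 ± 148 in HFD+AE (SD, n = 3; adjusted p = 0.77). Pparg, the receptor that drives fat storage, stood at 5.49 to 8.62 CPM in NC and 12.2 to 13.1 in HFD+AE (0.82, adjusted p = 0.078), and Cd36, a fatty acid transporter, at 41.9 to 65.5 and 108 to 140 CPM (1.34, adjusted p = 0.13). The values of Pparg and Cd36 did not overlap between the groups, yet neither passed.

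Few bile acid and sterol genes were called by edgeR. Of 22 bile acid genes 1 rose (Cyp8b1) and 1 fell (Abcb11), with 20 that did not pass and a median of 0.39. Of the 22, 8 had an unadjusted p below 0.05 (14% of all genes tested did) and 17 had a positive log2 change. DESeq2 called 2 higher and 2 lower. Cyp8b1, needed to make cholic acid, stood at 149, 158 and 70.2 CPM in NC and at 349, 381 and 615 in HFD+AE (1.84, SE 0.36, adjusted p = 0.028), and was not called without NC 2 (0.063), NC 4 (0.082), NC 5 (0.063), HFD+AE 2 (0.066) or HFD+AE 3 (0.094). Abcb11, which pumps bile salts into the canaliculus, went from 771 ± 120 to 359 ± 52.6 CPM (SD, n = 3; -1.10, SE 0.23, adjusted p = 0.036), which was not called without NC 2 (0.1), NC 4 (0.15), HFD 1 (0.066), HFD+AE 1 (0.1), HFD+AE 2 (0.091) or HFD+AE 3 (0.11). Cyp7a1, which sets the rate of bile acid production, varied within NC from 7.20 to 339 CPM and stood at 149 to 355 in HFD+AE (adjusted p = 0.67). None of 23 cholesterol synthesis genes and SREBP2 targets passed by edgeR (5 at an unadjusted p below 0.05; median 0.02), and HFD vs NC called 0 higher and 4 lower. Insig2, which holds back sterol-driven transcription and was picked after its values were seen, fell from 250, 252 and 159 CPM to 119, 105 and 104 (-1.01, SE 0.21, adjusted p = 0.038). It was called in HFD+RE (adjusted p = 0.015) and not in HFD (0.19), and in 3 of the 12 fits that left out a library.

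Part of the chaperone genes of the endoplasmic reticulum fell. Of 23 tested genes of the unfolded protein and integrated stress response, 6 fell (Creld2, Sdf2l1, Hyou1, Hspa5, Hsp90b1 and Dnajb11), 0 rose and 17 did not pass, with a median of -0.78. HFD vs NC called 1 higher and 10 lower (median -0.93), and HFD+RE vs NC called 10 lower. Hspa5, the central chaperone BiP, stood at 1108, 2929 and 1554 CPM in NC and at 574, 460 and 419 in HFD+AE (-1.94, SE 0.42, adjusted p = 0.041). Hyou1, a chaperone that works with it, went from 313, 810 and 373 to 120, 101 and 141 CPM (-2.05, SE 0.37, adjusted p = 0.022), and Creld2, a secreted stress protein, from 49.4, 218 and 95.7 to 20.6, 14.4 and 22.4 CPM (-2.66, SE 0.48, adjusted p = 0.02). Manf, a secreted factor of the same stress that is not on the list and was picked after its values were seen, went from 82.1, 192 and 120 to 38, 29.5 and 43.3 CPM (-1.83, adjusted p = 0.023). NC 4 was the highest library for all 4, and the groups did not overlap. Without NC 4 the adjusted p of Hspa5, Hyou1, Creld2 and Manf was 0.18, 0.082, 0.066 and 0.1. The number of the list that fell was 0 without NC 4, HFD+AE 1, HFD+AE 2 or HFD+AE 3, 2 without HFD 1 and 3 without NC 2, with a median that stayed between -1.01 and -0.64 over the 12 fits. All 12 heat shock chaperones tested had a negative log2 change (median -0.54; -0.34 without NC 4). By edgeR 0 of them passed and 5 had an unadjusted p below 0.05; 2 passed without NC 2, and 1 of the 12 was above zero without NC 4, NC 5 or HFD+AE 3.

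Of 19 clock genes tested 16 did not pass, and the median log2 change was 0.58 (0.23 without NC 2 and 0.34 without NC 4). Yet 14 of the 19 had an unadjusted p below 0.05 by edgeR, against 14% of all genes tested. The log2 change was positive for 12 and negative for 7, and DESeq2 called 5 higher and 3 lower. Npas2, an activator of the core clock, fell; it stood at 1.04, 2.94 and 0.368 CPM in NC and at 0.125, 0.106 and 0.0412 in HFD+AE (-3.92, SE 0.78, adjusted p = 0.029). Its adjusted p was 0.16 without NC 4, 0.12 without HFD+AE 2, 0.11 without HFD+AE 3, 0.074 without HFD+AE 1, 0.055 without NC 2 and 0.051 without HFD 1. The sources used here give no hour of collection, and its part in these values was not tested. Myc, a growth regulator on the immediate early list, was at 2.12, 22.9 and 24.6 CPM in NC and at 2.09, 1.15 and 1.71 in HFD+AE (-3.32, adjusted p = 0.036). NC 2 nearly met the HFD+AE range, and the call held in 3 of the 12 fits, with a highest adjusted p of 0.15, without HFD+AE 2.

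Themis, best known for T-cell selection, was higher than in NC in all 3 high-fat groups and was the only gene called both against NC and, in the other direction, against HFD. It stood at 0.781, 0.631 and 0.973 CPM in NC, at 9.25, 6.52 and 5.19 in HFD+AE, at 6.15, 5.25 and 3.84 in HFD+RE and at 24.1, 27.6 and 21.2 in HFD. It rose over NC by 3.12 (SE 0.28, adjusted p = 0.00033) and differed from HFD by -1.80 (adjusted p = 0.038). Of 15 T and NK cell markers 0 passed by edgeR in HFD+AE vs NC and 0 had an unadjusted p below 0.05 (median -0.46), while HFD vs NC called 7 higher (median 1.91). Their summed level was 34.9, 7.91 and 67.4 CPM in HFD 1, 2 and 3, against 6.69 to 15.9 in NC. HFD 2 thus lay within the NC range for these markers, though it was the library with the most Themis. Stap1, a signalling adaptor, rose from 0.955 ± 0.297 to 5.79 ± 2.03 CPM (SD, n = 3; 2.59, SE 0.34, adjusted p = 0.0044), and Tlr12, a receptor for microbial profilin, from 2.60, 2.26 and 2.46 to 11.8, 15.4 and 31.0 CPM (2.99, SE 0.36, adjusted p = 0.0035). Sema5b, a semaphorin, rose from 1.39, 1.3 and 1.84 to 8.77, 11.4 and 18.2 CPM (3.07, SE 0.40, adjusted p = 0.0044), below the 20.4 to 22.9 of HFD. Cspg5, a membrane proteoglycan picked after its values were seen, fell from 2.56, 3.09 and 1.77 to 0.125, 0.0709 and 0.0824 CPM (-4.69, SE 0.61, adjusted p = 0.0044). Of 32 interferon-stimulated genes 0 passed by edgeR and 6 had an unadjusted p below 0.05 (median 0.20; 0.34 without NC 2), where HFD vs NC called 11 higher. Tnf, an inflammatory cytokine, and Saa1, an acute phase protein, did not pass (adjusted p = 0.77 and 0.57).

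**Figure D3:**
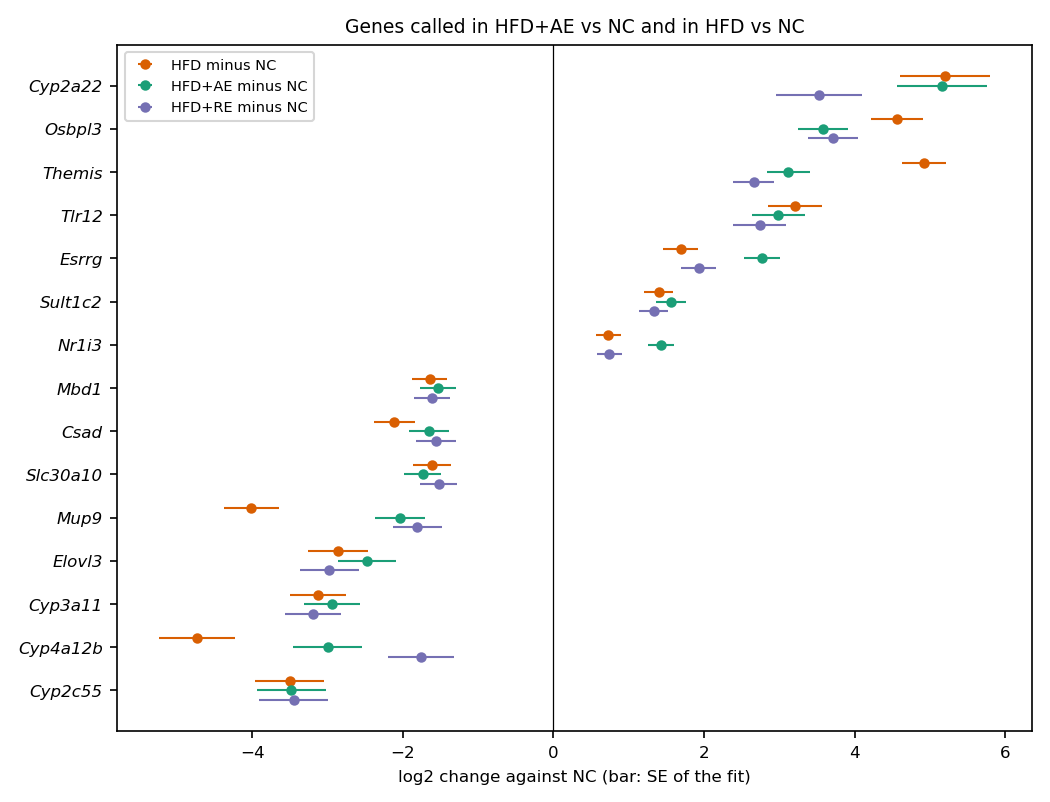
Log2 change against NC in HFD (orange), HFD+AE (green) and HFD+RE (purple) for 7 genes that rose and 8 that fell, among those with the smallest p of the genes called in both HFD+AE vs NC and HFD vs NC; points are fitted changes and bars their SE. The 3 points of a gene lie on the same side of zero, and HFD+AE lies nearer to zero than HFD for Themis, Mup9 and Cyp4a12b and farther from zero for Esrrg and Nr1i3.

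On the matrix and fibrosis list 25 genes were tested: 3 rose (Bgn, Col6a1 and Col14a1), 0 fell and 22 did not pass; 22 had a positive log2 change (median 0.53; 0.52 in HFD vs NC, where 7 rose). Bgn, the proteoglycan biglycan, stood at 46.6, 46.8 and 46.7 CPM in NC and at 77.2, 81.2 and 138 in HFD+AE (1.08, SE 0.22, adjusted p = 0.03). The 3 matrix calls rested on single libraries: 0 were made without NC 2, NC 4, NC 5, HFD 1, HFD+AE 2 or HFD+AE 3, and 1 without HFD 2, HFD 3 or HFD+RE 5. Of the stellate cell markers, 1 of 11 rose (Colec11, a collectin), 10 did not pass and 11 of 11 had a positive change (median 0.78). Their summed level was 202 to 228 CPM in NC and 350 to 467 in HFD+AE. Colec11 rose from 12.9 ± 0.79 to 28.4 ± 9.44 CPM (SD, n = 3; 1.14, SE 0.21, adjusted p = 0.023; 0.058 without NC 2, 0.1 without NC 4 and 0.052 without NC 5). In bulk tissue, more cells of a type and more RNA per cell cannot be told apart. Col1a1, a fibrillar collagen, was at 2.94 ± 1.33 and 5.08 ± 2.67 CPM (SD, n = 3; adjusted p = 0.43).

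Markers of other cells gave few calls by edgeR. Kupffer cells and macrophages had 0 of 13, with 0 at an unadjusted p below 0.05 (median -0.14), and their summed level was 358 to 582 CPM in NC and 365 to 529 in HFD+AE. Sinusoidal endothelial cells had 0 of 12 (0 unadjusted, median 0.03), B and plasma cells 0 of 11 (1 unadjusted, median 0.26) and neutrophils 0 of 6 tested (2 unadjusted, median -1.22). Of 12 markers of lipid-associated and recruited macrophages 1 fell, Cd9, a tetraspanin (-1.46, adjusted p = 0.037), which was called in 5 of the 12 fits that left out a library. Trem2, which marks the last of these, stood at 0.657 ± 0.269 and 1.13 ± 0.303 CPM (SD, n = 3; adjusted p = 0.56). The pancreas markers Cpa1 and Pnlip and the adipocyte marker Lep had no counts in any library, and Adipoq was at most 0.0824 CPM in HFD+AE. Other members of these lists were present. Cela1 of the pancreas list stood at 21 to 25.4 CPM in NC and 20.5 to 24.2 in HFD+AE. On the adipocyte list Lipe stood at 8.31 to 11.9 and 9.3 to 15.9 CPM, and Cfd at 0.762 to 0.854 and 0.268 to 1.2 CPM.

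The 24 genes (0.131%) called in HFD+AE and HFD+RE but not in HFD included Cyp17a1, Fnip2 and Snhg11. Cyp17a1, a steroid hydroxylase and lyase on the female-biased list, stood at 7.83, 4.92 and 16.1 CPM in NC, at 10.4 to 15 in HFD, at 32.7, 61.1 and 37.4 in HFD+AE and at 54.6 to 62.2 in HFD+RE. Both exercise groups lay above both others, with a change from NC of 2.18 in HFD+AE (SE 0.37, adjusted p = 0.014) and a difference from HFD of 1.73 (adjusted p = 0.057). The call was lost without NC 2 (0.058) or HFD+AE 2 (0.063). Fnip2, a folliculin-interacting protein of nutrient signalling, rose from 31.1, 36.3 and 27.8 to 63.0, 72.0 and 74.5 CPM (1.14, SE 0.17, adjusted p = 0.0099), a call made without each of the 12 libraries. HFD (37.1 to 51.7) and HFD+RE (53.2 to 59.0) lay lower, and the difference from their mean was 0.48 (adjusted p = 0.15). Snhg11, a small nucleolar RNA host gene, fell from 19.1, 18.6 and 18.6 to 4.83, 5.19 and 1.73 CPM (-2.26, SE 0.40, adjusted p = 0.018; 0.063 without NC 4 and 0.054 without HFD+AE 2). HFD held 10.6 to 16.2 CPM of it, above all HFD+AE libraries, and HFD+AE minus HFD was -1.71 on the log2 scale (adjusted p = 0.061).

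The 32 genes (0.175%) called in HFD+AE vs NC and in neither other group were 22 that rose and 10 that fell. Their adjusted p-values ran from 0.0125 to 0.0498, with 14 at 0.04 or more. In HFD vs NC 29 of the 32 had the same sign and 15 an unadjusted p below 0.05 (34.7% of all genes did), and in HFD+RE vs NC 32 and 27 did (24.5% of all genes for the p). Their lowest adjusted p was 0.0547 in HFD and 0.0526 in HFD+RE. The test of the difference itself called 1 of the 32 against HFD (Tgfbr3) and 0 against HFD+RE or against the mean of HFD and HFD+RE. Unadjusted, 25, 11 and 28 of the 32 had p below 0.05 in those comparisons, against 26.4%, 8.02% and 21.3% of all genes tested, where the calls were 9, 0 and 0. HFD+AE did not overlap HFD for 28 of the 32, HFD+RE for 14, and both for 13. The share of all genes tested that did not overlap was not taken for these groups. The 32 were chosen for passing in HFD+AE vs NC and missing in the other groups. That choice favours separation from those groups, so the counts without overlap and with unadjusted p below 0.05 are partly built in. So with edgeR's quasi-likelihood test no gene was shown to differ in HFD+AE from the mean of the other high-fat groups, while DESeq2 called 736 over all genes in that comparison and edgeR 2287 without HFD+RE 3.

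Tgfbr3, the TGF-beta co-receptor betaglycan, stood at 9.18, 8.22 and 8.88 CPM in NC, 6.97 to 7.40 in HFD, 14.1, 15.9 and 13.9 in HFD+AE and 10.9 to 12.9 in HFD+RE. No HFD+AE value overlapped another group. It rose by 0.74 over NC (SE 0.16, adjusted p = 0.037) and differed from HFD by 1.02 (adjusted p = 0.047), but it was called against NC in only 1 of the 12 fits that left out a library, with a highest adjusted p of 0.17, without NC 4. Hhip, which binds hedgehog ligands, showed a like order at 1.67 to 2.22 CPM in NC, 1.28 to 1.69 in HFD, 5.67, 4.18 and 3.40 in HFD+AE and 2.61 to 3.28 in HFD+RE (1.20 over NC, SE 0.26, adjusted p = 0.038; difference from HFD 1.54, adjusted p = 0.054). Bmp10, a bone morphogenetic protein, was at 2.01 to 2.87 CPM in NC and at 5.68, 5.01 and 6.03 in HFD+AE, above HFD (2.74 to 3.43) and HFD+RE (3.03 to 4.58) (1.14, SE 0.24, adjusted p = 0.036). Gdf2, which encodes the related BMP9, was at 6.88 to 9.24 CPM in NC and at 13.5, 13.5 and 25 in HFD+AE. HFD (12.5 to 13.7) overlapped it, and HFD+AE 3 was the highest of the 12 libraries (1.10 over NC, adjusted p = 0.036).

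Tenm3, a cell adhesion protein of the teneurin family, stood at 22.5, 14 and 16.2 CPM in NC and at 44.3, 44.5 and 39.1 in HFD+AE (1.28, SE 0.26, adjusted p = 0.033). HFD (16.3 to 30.4) and HFD+RE (16 to 27.2) overlapped NC, and the difference from their mean was 0.91 (SE 0.22, adjusted p = 0.14). Vnn3, of the pantetheinase family, rose from 48.3, 54.3 and 57.0 to 95.7, 105 and 143 CPM (1.11, SE 0.20, adjusted p = 0.023), and Ccbe1, a matrix protein of lymphatic growth, from 3.01 ± 0.381 to 6.64 ± 1.70 CPM (SD, n = 3; adjusted p = 0.038). Hlf, a clock output factor, rose from 61.6 ± 13.1 to 115 ± 6.97 CPM (SD, n = 3; 0.90, SE 0.17, adjusted p = 0.025). Dgat2, which makes triglyceride in its last step, rose from 474, 487 and 477 to 776, 830 and 1123 CPM (0.92, SE 0.20, adjusted p = 0.041), with HFD at 574 to 627 below it and HFD+RE at 637 to 898 overlapping it.

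Among the genes that fell only there, Col5a3, a fibrillar collagen chain, went from 70.8, 59.5 and 65.7 to 34.6, 27.9 and 19.9 CPM (-1.25, SE 0.24, adjusted p = 0.024), with HFD at 43.9 to 49.9. Tmed9, a cargo receptor of the early secretory pathway, fell by 0.91 on the log2 scale (adjusted p = 0.046), and Tifa, an adaptor of NF-kappa-B signalling, by 0.89 (adjusted p = 0.046). Spaca6, known for its part in sperm-egg fusion, fell from 5.74 ± 1.17 to 1.90 ± 0.675 CPM (SD, n = 3; adjusted p = 0.049). Of all 32 genes, none was called in each of the 12 fits that left out a library. The number of the 32 that were still called only there was 0 without HFD+AE 2, 1 without NC 4, 4 without NC 2, 5 without NC 5, 5 without HFD+AE 3, 6 without HFD 1, 8 without HFD+AE 1, 12 without HFD 3, 13 without HFD 2, 15 without HFD+RE 5, 18 without HFD+RE 3 and 19 without HFD+RE 4. Whole counts of such genes in those fits ran from 1 to 44.

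**Figure D4:**
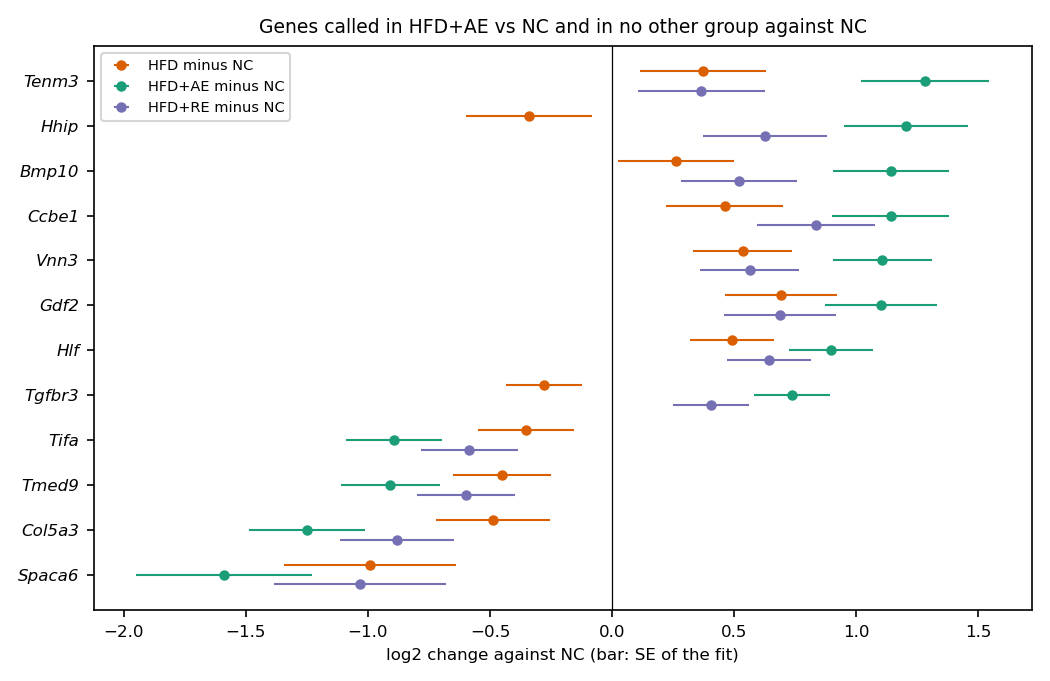
Log2 change against NC in HFD (orange), HFD+AE (green) and HFD+RE (purple) for the 12 genes named by rule among the 32 called in HFD+AE vs NC alone; points are fitted changes and bars their SE. For each gene the green point is farthest from zero, which the choice of genes favours. Only for Hhip and Tgfbr3 does the HFD point lie on the other side of zero.

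The remaining function lists gave few or no calls. By edgeR 0 of 41 genes of oxidative phosphorylation passed (2 at an unadjusted p below 0.05, median 0.22), 0 of 38 cytosolic ribosomal proteins (1 unadjusted, median -0.12) and 0 of 22 of lipoproteins and sterol transport (5 unadjusted, median 0.40). The same was so for 17 hepatokines (5 unadjusted), 20 genes of glucose metabolism (6 unadjusted), 16 of the glucocorticoid and fasting response (3 unadjusted), 15 regulators of mitochondrial biogenesis (1 unadjusted) and 24 cell cycle genes (0 unadjusted). Pck1, which commits carbon to glucose synthesis, was at 3398 ± 412 CPM in NC and 3294 ± 528 in HFD+AE (SD, n = 3; adjusted p = 0.95). Among NRF2 targets and antioxidants, 1 of 21 rose (Nqo1) and 1 fell (Gstp1, a glutathione transferase). Nqo1, a quinone reductase, was called in 4 of the 12 fits that left out a library. Gstp1 went from 1107, 1053 and 1069 to 360, 264 and 587 CPM (-1.42, SE 0.29, adjusted p = 0.034; lost without NC 2 at 0.085, NC 4 at 0.11, NC 5 at 0.06, HFD 1 at 0.06, HFD+AE 1 at 0.1 or HFD+AE 2 at 0.13). Among amino acid and urea cycle genes, 1 of 27 rose (Prodh, proline dehydrogenase; adjusted p = 0.0498, called in 1 of the 12 fits that left out a library).

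**Figure D5:**
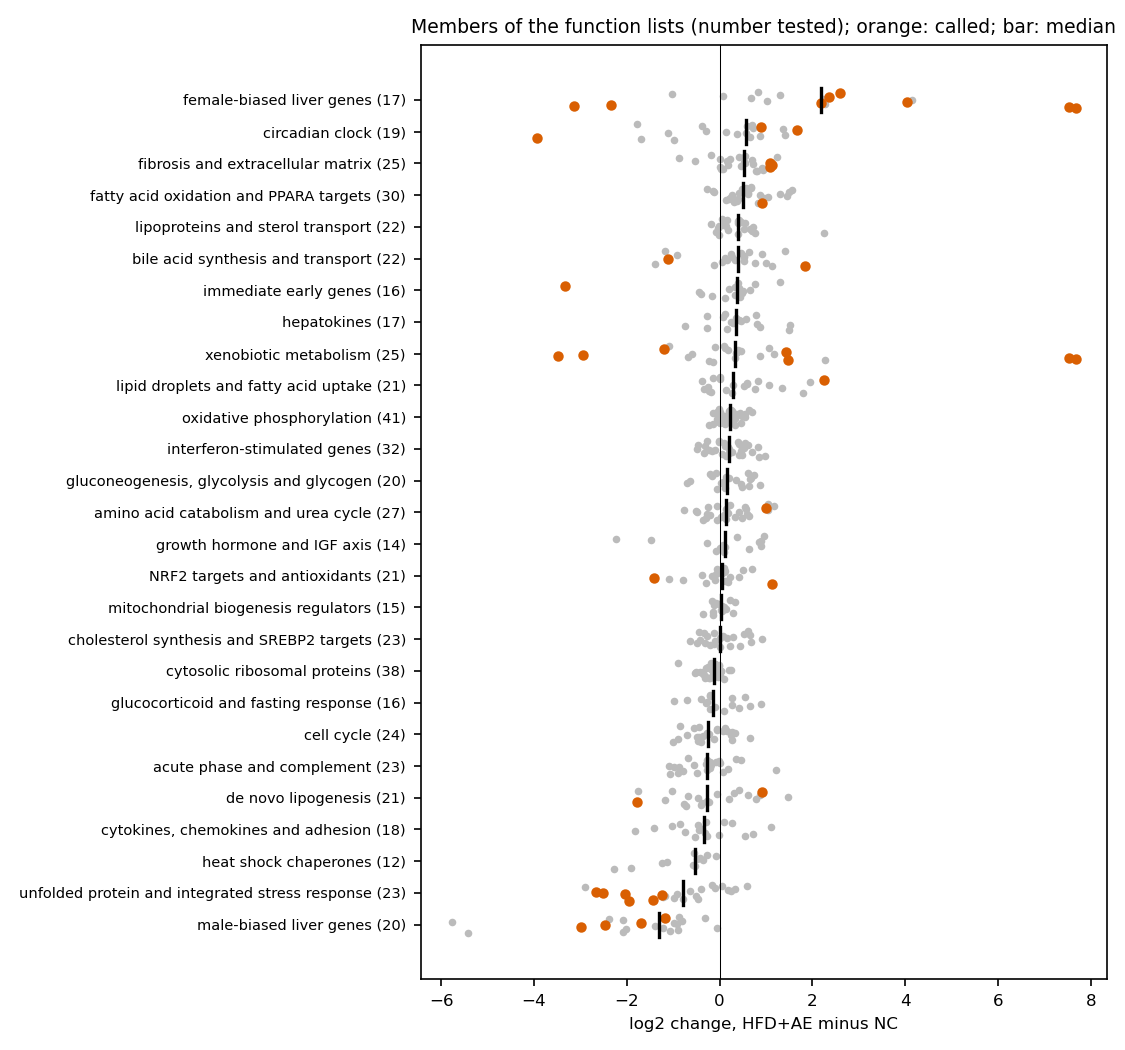
Log2 change in HFD+AE vs NC (horizontal axis) of each tested member of the function lists (1 row per list, number tested in brackets); grey points did not pass, orange points were called, and the black bar is the list's median. The medians of female-biased genes (2.18) and male-biased genes (-1.31) lie farthest from zero. With no low-count filter the median of the 20 female-biased genes was 1.15.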

How the data were processed

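Gene counts of whole reads from 12 liver libraries were deposited as a single table by the authors, with fastp, HISAT2 2.2.1, featureCounts 2.0.6, DESeq2 1.40.1 and build mm10 named in the submitters' processing notes or the file header. No source used here gives the annotation release, the strand setting or the treatment of reads with several matches, so near-identical families (Cyp2a, Cyp2b, Cyp2c, Cyp3a, Cyp4a, Ces2, Mup, Slc22a27 and Slc22a29, Hsd3b) and overlapping genes are uncertain. Coordinates are from GENCODE M21 (mm10). All columns of samples were used (0 were not).

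The counts were filtered with filterByExpr, scaled by TMM and fitted in 1 model over the 4 groups with edgeR 4.0.16 (quasi-likelihood, robust; R 4.3.3), so that all groups shared the estimate of the spread. Every adjusted p is Benjamini-Hochberg over the 18305 genes tested, with a threshold of 0.05 and no minimum fold. CPM use TMM-scaled library sizes, and log2 CPM a prior count of 2. Tests and fitted changes were checked on simulated counts. Alternatives were DESeq2 1.42.0, limma 3.58.1, other filters, scalings and designs, and leaving out each library.

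Named genes were, among called genes without overlap between groups and with mean log2 CPM above 1, the 12 with the largest change each way, the 8 with the smallest p each way among those also called in HFD vs NC and among those called only in HFD+AE vs NC, up to 3 called members per list, and fixed markers. The comparison, lists and rules were chosen with earlier results of these data known. Named outside that rule, after their values were seen, were Cyp17a1, Serpina6, Hspa5, Hsp90b1, Manf, Cyp2b13, Hao2, Cyp2a5, C6, Cyp3a44, Fnip2, Slc2a5, Cspg5, Insig2, Aldh3a2, Dglucy and Asrgl1, and the nuclear receptor list. A gene that the rule named is not reported here.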

Additional observations from a re-analysis of the deposited data

Results flagged for a closer look

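A gene was picked out here where its change from NC differed between HFD+AE and HFD by the test of the difference itself, among the genes called in HFD+AE vs NC, and 2 genes met this. For Tgfbr3, the co-receptor betaglycan, the HFD+AE change minus the HFD change was 1.02 on the log2 scale (edgeR quasi-likelihood test, adjusted p = 0.047), with all 3 HFD+AE libraries above all 3 HFD libraries. Its change from NC was called in only 1 of the 12 fits that left out a library. For Themis, the T-cell selection protein, the difference was -1.8 (adjusted p = 0.038), with all 3 HFD+AE libraries below all 3 HFD libraries and above all 3 NC libraries.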

How the results depend on the processing

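No gene called in HFD+AE vs NC changed sign in any of 24 alternatives, 47 of the 253 were called in at least 20 of them and 1 (Esrrg) in all. The values of all 253 did not overlap between NC and HFD+AE, and the alternatives used the same libraries. The kept signs are therefore largely built in. The count of 253 became 843 with DESeq2, 408 with no filter on low counts, 82 with only the groups compared in the fit, 9 when tested against a 2-fold change, 461 with a length and GC trend removed and 1841 with limma voom and sample quality weights. In the same order, the 197 also called in HFD vs NC became 565, 292, 74, 8, 341 and 1226, and the 32 called only there became 154, 75, 7, 1, 66 and 455. Against the mean of HFD and HFD+RE, where edgeR called 0, DESeq2 called 736, no filter 174, voom 9218 and the fit without HFD+AE 3 and HFD+RE 3 5221; the cause was not tested. Leaving out 1 library gave 44 to 373 genes called, 42 to 297 also called in HFD vs NC, 1 to 44 called only there and 0 to 2287 against the mean. With the title number as a replicate block, 1 gene was called, 1 also in HFD vs NC and 0 only there; with the block and the length and GC trend removed together the counts were 21, 20 and 0. HFD+AE and NC share only the number 2, and deviations of the libraries with that number correlated at 0.049. A single pair of libraries cannot show whether the numbers pair the samples. Genes that changed sign were all uncalled. On the log2 scale, Pck1 was 0.0799 without HFD+AE 3 and HFD+RE 3, 0.0204 with voom and -0.1475 to 0.0715 when leaving out 1 library. Plin2 was 0.0633 with the block, 0.0137 with the block and trend and -0.6017 to 0.0149 over leave-outs. Over leave-outs Saa1 ran from -1.5369 to 0.8052, Igf1 from -0.1101 to 0.4284 and Cidec from -0.3892 to 0.0768. With 3 libraries a group, a gene that missed the threshold is not shown to be alike in the groups.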
